A study of Chlorocebus aethiops with 12 samples.

Results

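The dexamethasone effect with the Y30F receptor was measured in COS-1 cells, an SV40-transformed kidney line of the African green monkey that is widely used for transient transfection. The comparison sets 3 arrays of cells treated with 100 nM dexamethasone (Y30F-DEX) against 3 arrays of cells treated with 0.1% DMSO as vehicle (Y30F-DMSO), chosen by their sample titles, which is 6 of the 12 arrays of the series. All 6 samples came from cells transfected with 2 plasmids, mCCRP-V5 and FLAG-hGR Y30F, and treatment began 40 hours after transfection and lasted 6 hours. The other 6 arrays have the same layout with FLAG-hGR Y30E in place of Y30F. The receptor is the human glucocorticoid receptor with tyrosine 30 replaced by phenylalanine (Y30F), a residue that cannot be phosphorylated, or by glutamate (Y30E), an acidic residue. CCRP is the co-chaperone encoded by DNAJC7. No array with an unmutated receptor or without transfection was analysed here, so the dexamethasone effect is that of cells overexpressing a mutated receptor together with CCRP, and a transient transfection reaches only some of the cells.

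Dexamethasone is a synthetic glucocorticoid. The unliganded receptor is held in the cytoplasm by heat shock proteins and co-chaperones; once hormone binds, it moves to the nucleus, raises transcription of genes next to its binding sites and lowers that of many inflammatory and growth-factor-induced genes, among them targets of AP-1 and NF-kappaB. Well-known induced genes include FKBP5 and TSC22D3, which feed back on receptor or inflammatory signalling, the clock gene PER1, the kinase SGK1 and the metallothioneins.

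Total RNA was hybridised in 1 colour to Agilent whole human genome arrays, so human probes read monkey transcripts. Signals are given on a common scale after each array was set to the same 75th percentile, and changes are log2 differences (dexamethasone minus DMSO) with limma's standard error (SE), n = 3 arrays per group. The labels do not say that the 3 replicates are separate cultures, so the p-values reflect the scatter among 3 arrays per group and not necessarily that among cultures. Between 60.5% and 67.0% of the spots per array were well above background, 0 were saturated, and the 8 residual degrees of freedom of the 12-array fit limit the precision. Of the 8 COS-1 markers listed, 6 were tested (VIM, LGALS1, S100A6, KRT8, KRT18 and SPARC), all 6 were well above background on every array and 0 of them passed the test, with changes of 0.01 to 0.12. COL1A2 was not above background, and COL1A1 was not analysed here. Of 20 markers of other cell types 10 were tested and 0 passed; the water channel AQP1 was bright, at 65690 to 76851, and AQP2 read 1379 to 1653, whereas LRP2, SLC34A1, PECAM1, CDH5, PTPRC and SYP were not above background.

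The arrays lie on 3 slides, which divide the dexamethasone group: its replicate 1 shares slide 1 with the 3 DMSO arrays, and its replicates 2 and 3 lie on slide 2. The mean of replicates 2 and 3 minus replicate 1 had an SD over features of 0.270 for the 18423 features whose probe was well above background on all 12 arrays (called bright here) and 0.768 for the other 1614. Shifts over 1 log2 were mostly upward in replicates 2 and 3. Among bright features 277 were higher and 9 lower, and among the others 372 were higher and 25 lower. The cause of this shift was not tested. A fit with slide as a fixed block takes the dexamethasone effect from replicate 1 alone, so its value is given beside the value without it for the genes the results turn on. With Y30E, DMSO replicates 1 and 2 lie on slide 2 and the other arrays on slide 3. The block value of the Y30E effect therefore rests on DMSO replicate 3 alone.

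With the scaling used here, many more transcripts passed as higher on dexamethasone than as lower, but this balance depended on the normalization. With centring on the median, 123 features passed higher and 144 lower. The counts that follow use the main scaling. Of 20037 features tested, 365 passed an adjusted p of 0.05 (1.82%), 287 higher (1.43%) and 78 lower (0.389%). Among bright features 247 were higher (1.34%) and 76 lower (0.413%). Without any test, all 3 dexamethasone arrays lay above all 3 DMSO arrays for 1974 features (9.85%) and below them for 1124 (5.61%). The median change was 0.54 among those higher and fell by 0.43 among those lower, against 0.02 for all features. At least a 2-fold rise was seen for 46 of the higher features, 19 of them bright, and at least a 2-fold fall for 2 of the lower ones, both bright. In bulk RNA, a change in the number of cells of a kind and a change in RNA per cell cannot be told apart.

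Replicate 1, the dexamethasone array on the slide of the DMSO arrays, is itself one of the arrays tested, so its direction in these calls is partly set by the calls. As a description, it gave a median of 0.50 for the higher features, where replicates 2 and 3 gave 0.55, and −0.43 for the lower features, where they gave −0.42. With slide as a block, at a median SE of 0.11 in place of 0.08, 120 features passed (0.599%), 95 of them also passing without the block. The number of calls was 1367 without Y30F-DEX replicate 1, 1253 of them higher and 354 of them among the 365. It was 237 without Y30F-DEX replicate 2 and 207 without Y30F-DEX replicate 3. The share of calls that were higher, 78.6% with scaling to the 75th percentile, was 65.8% with quantile normalization and 46.1% with centring on the median, which moved the median change of all features to −0.11.

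**Figure D1:**
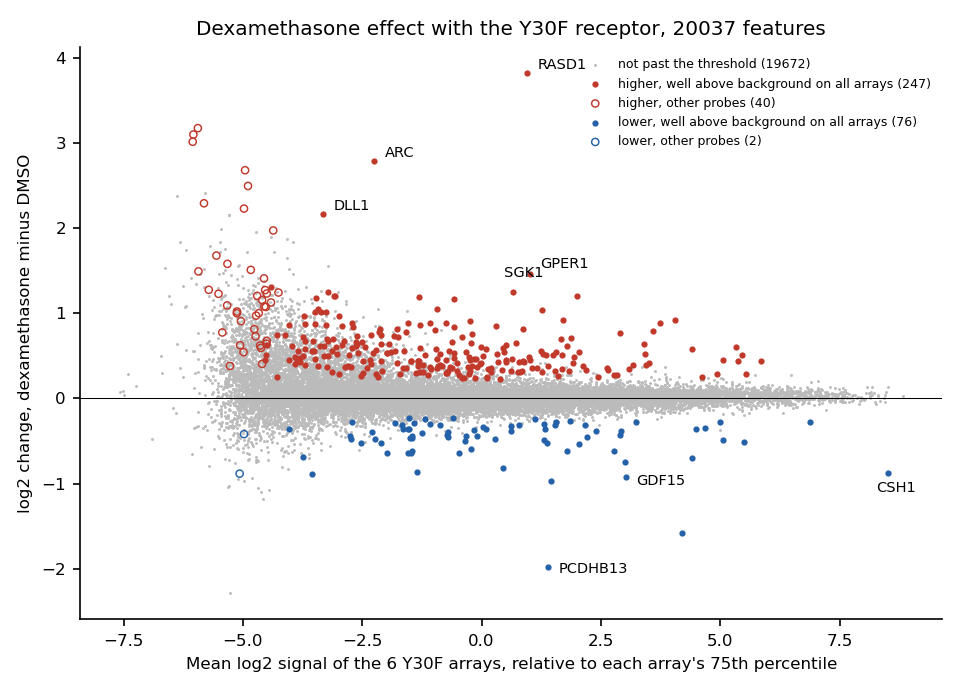
Mean log2 signal of the 6 Y30F arrays relative to each array's 75th percentile (x axis) against the log2 change on dexamethasone (y axis), 1 point per feature. Red and blue points passed the test higher and lower, open ones where the probe was not well above background on all 12 arrays; 247 of the 287 higher and 76 of the 78 lower features are filled.

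**Figure D2:**
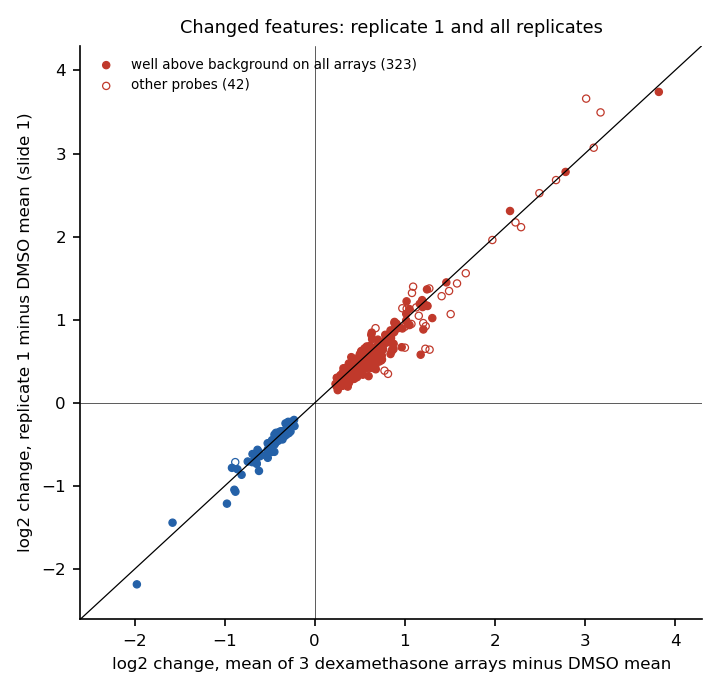
For the 365 changed features, the log2 change from all 3 dexamethasone arrays (x axis) against that from replicate 1 alone, the array on the slide of the DMSO arrays (y axis), with the line of equality. Replicate 1 is part of both axes, so agreement is partly built in; the points run from RASD1 (3.82 and 3.74) down to PCDHB13 (−1.97 and −2.18).

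RASD1, which encodes a Ras-like GTPase also known as dexamethasone-induced Ras protein 1, had the largest change. Its signals (record NM_016084) were 371, 437 and 444 on the DMSO arrays and 5566, 5984 and 6100 on the dexamethasone arrays. The groups lay far apart, a rise of 14.1-fold (log2 3.82, SE 0.09, limma adjusted p = 1.74e-08; 3.74 with slide as a block). Of the 19 Ras-like GTPase genes tested, 3 rose and 0 fell, with a list median of 0.04; the others that rose were RHOU (0.39) and RERG (0.68), and both lost their calls with the slide block.

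ARC, an immediate early gene of neurons whose protein acts at synapses, followed among the named bright genes. It read 60.6, 66.7 and 67.4 with DMSO and 445, 439 and 457 with dexamethasone. These 3 dexamethasone values differ by less than the DMSO values do on the log scale, and the rise was 6.89-fold (log2 2.79, SE 0.07, limma adjusted p = 2.72e-08; 2.78 with the slide block). DLL1, a ligand of Notch receptors, rose from 41.8, 38.3 and 34.2 to 188, 177 and 150, which is 4.50-fold (log2 2.17, SE 0.10, limma adjusted p = 5.12e-06). Its highest dexamethasone array was replicate 1, and the block value was 2.31. GPER1, a G-protein-coupled receptor for estrogen, rose from 912, 988 and 1044 to 2676, 2642 and 2779 (2.75-fold, log2 1.46, SE 0.06, limma adjusted p = 3.57e-06; block value 1.45).

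Features without a gene name are left out of the ranks here. The 15 highest and 15 lowest genes were taken only where the 2 groups of arrays did not overlap. The remaining 11 of the 15 largest bright rises of named genes lay between 1.02 and 1.25 on the log2 scale, and all 15 also passed with slide as a block. They included SGK1, PDK4, ERRFI1 and CXCR4, described with their groups below, and TCHH (trichohyalin, a structural protein of hair follicles), KBTBD11, PRR15, RAG1 (a recombinase subunit of lymphocytes) and SHISA2. CXCR4, the receptor of the chemokine CXCL12, read 192, 224 and 231 with DMSO and 507, 479 and 490 with dexamethasone. Its rise was 2.29-fold (log2 1.19, SE 0.08, limma adjusted p = 4.22e-05), while CXCL12 itself did not pass, at 0.09. RAG1 had low signals, at 51.6 to 59.3 with DMSO against 103 to 116 with dexamethasone (log2 1.02, SE 0.09).

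**Figure D3:**
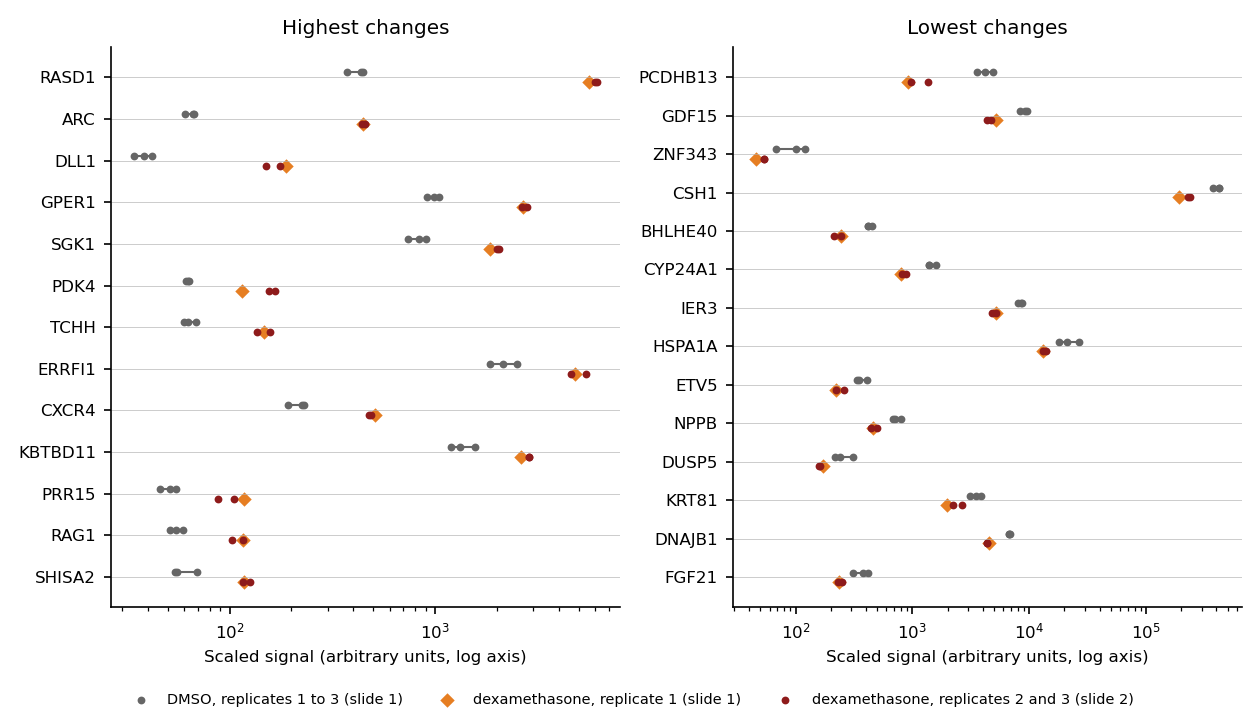
Scaled signal on each of the 6 Y30F arrays (log axis, arbitrary units) for 13 of the 15 named bright genes with the highest and 14 of the 15 with the lowest log2 change. Grey points are the 3 DMSO arrays, the diamond is dexamethasone replicate 1, which shares their slide, and dark red points are replicates 2 and 3. The genes were chosen as changed, so the distance of the diamond from the grey points is a description.

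Of 37 measured genes on a list of established glucocorticoid targets, 20 rose (1.43% of all features did) and 0 fell (0.389% of all features did); the list's median change was 0.51 against 0.02 for all features. With slide as a block 14 of the 37 passed. Among the 17 that did not pass, 13 had a change above 0, and the range was −0.27 (PHLDA1) to 0.63 (CRISPLD2). For CRISPLD2 the 3 dexamethasone arrays lay above the DMSO arrays, at 40.4 to 53.9 against 28.3 to 31.3, with an SE of 0.33. The transcription factor gene ZBTB16, a strong target in many tissues, changed by 0.25 (SE 0.06, limma adjusted p = 0.0918). ANGPTL4, FAM107A, STEAP4, TAT, G6PC1, IGFBP1, TFCP2L1, HSD11B1 and ADAMTS9 were not above background. The gene lists were all chosen with earlier results of these data known, so their counts are a description. The shares over all features given here apply to every list. This list of established targets holds RASD1 and ERRFI1 and overlaps the lists below. Its members not described elsewhere that rose were the vasoconstrictor peptide gene EDN1 (0.52), the endothelial lipase gene LIPG (0.55) and the thrombomodulin gene THBD (0.30), and all 3 lost their calls with the slide block.

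Genes that feed back on the receptor or on inflammatory signalling were among those that rose. FKBP5 encodes an immunophilin that binds the receptor with HSP90 and lowers its hormone affinity. It read 979, 1146 and 1058 with DMSO and 1650, 1583 and 1746 with dexamethasone, a rise of 0.65 (SE 0.07, limma adjusted p = 0.000649; 0.64 with the slide block). It was the only one of 13 measured FKBP immunophilin genes to pass, and FKBP4, its counterpart in receptor complexes, changed by −0.12. DUSP1, a phosphatase that inactivates MAP kinases, read 4140, 5011 and 4727 with DMSO and 7544, 7724 and 8375 with dexamethasone (0.77, SE 0.09, limma adjusted p = 0.00138; block value 0.71). Of the 10 measured MAP kinase phosphatase genes only DUSP1 rose; DUSP5 fell by 0.63 and lost its call with the block, and the other 8 did not pass, with changes down to −0.33 (DUSP6) and a list median of −0.14. TSC22D3 (the leucine zipper protein GILZ) read 134, 231 and 179 with DMSO and 302, 310 and 324 with dexamethasone. The DMSO arrays were the more variable, the rise was 0.82 (SE 0.15, limma adjusted p = 0.0225) and the call was lost with the slide block (0.77). NFKBIA, the inhibitor that retains NF-kappaB in the cytoplasm, rose by 0.62 (SE 0.11) and also lost its call with the block (0.64).

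The clock gene PER1 and the kinase gene SGK1 rose, while most measured genes of their groups did not pass. PER1, a repressor of the circadian clock, read 493, 491 and 510 with DMSO and 957, 954 and 891 with dexamethasone, a rise of 0.91 (SE 0.06, limma adjusted p = 2.96e-05; 0.94 with the slide block). PER2 (0.30), PER3 (−0.22), CLOCK (0.09), CRY1 (−0.10) and CRY2 (0.21) did not pass. The clock list had 1 rise and 3 falls among 14 genes: BHLHE40, NR1D1 and CIART, all transcriptional repressors of the clock, fell. BHLHE40 read 451, 415 and 416 with DMSO and 246, 247 and 215 with dexamethasone. It fell by 0.86 (SE 0.07, limma adjusted p = 0.000203; −0.80 with the slide block), NR1D1 by 0.48 and CIART by 0.36, the last without passing under the block. The list median was −0.09.

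SGK1, the kinase that keeps epithelial sodium channels at the cell surface, read 903, 735 and 833 with DMSO and 1842, 2045 and 1986 with dexamethasone. The rise was 2.38-fold (log2 1.25, SE 0.08, limma adjusted p = 2.83e-05; 1.17 with the slide block). Its relatives SGK2 (0.69, SE 0.22) and SGK3 (0.00) did not pass. The sodium transport list held 4 rises and 0 falls among 15 genes, with a median of 0.13: SGK1, PER1, TSC22D3 and the channel subunit SCNN1A. Over the 13 bright members the median was 0.08, and 0.05 by replicate 1. SCNN1A was well above background on 0 of the DMSO arrays and on all 3 dexamethasone arrays, at 15.4 to 16.9 against 30.6 to 37.0; it entered the test through the dexamethasone arrays, and its call was lost with the slide block. The sodium pump gene ATP1B1 (−0.01) and the ubiquitin ligase gene NEDD4L (−0.02) did not pass.

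PDK4, the kinase that shuts pyruvate dehydrogenase and so spares glucose, was low with DMSO, at 63.5, 61.2 and 63.0, and read 115, 167 and 156 with dexamethasone. All 3 dexamethasone arrays were above the DMSO arrays, and replicate 1 was the lowest of them: the rise was 1.21 (SE 0.13, limma adjusted p = 0.000822) over all arrays and 0.88 with the slide block, which it still passed. PDK1, PDK2 and PDK3 did not pass, with changes down to −0.05. Of 14 measured genes of fuel switching and gluconeogenesis, PDK4 and the glutamine synthetase gene GLUL (0.44) rose and 0 fell (median 0.04); GLUL lost its call with the block. PCK1 (−0.10), the rate-limiting enzyme of gluconeogenesis, did not pass. The insulin receptor substrate gene IRS2 rose by 0.51 (SE 0.05), and on the list of insulin, FOXO and mTOR brakes FOXO4 (0.45) rose while TXNIP (−0.38) and SESN2 (−0.24) fell; of these 4, IRS2 alone passed with the block, and the median of the 12 measured was 0.07.

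Of 9 measured genes of metallothioneins, small metal-binding proteins, 6 rose and 0 fell, with a median of 0.46. MT2A read 10377, 9245 and 9826 with DMSO and 18599, 18826 and 18177 with dexamethasone. It rose by 0.92 (SE 0.06, limma adjusted p = 4.43e-05; 0.92 with the slide block), and its other 2 kept probes moved by 0.88 and 0.84. MT1X (0.60), MT1H (0.51), MT1B (0.46), MT1G (0.44) and MT1E (0.29) rose as well; MT1X and MT1H also passed with the block. MT1A (0.27), MT1M (0.46) and the brain form MT3 (−0.12) did not pass. These genes are near-identical in sequence and the probes are human, so signals assigned to single MT1 genes are uncertain and the 6 rises are not 6 separate observations.

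The same list of established targets holds regulators of transcription and growth. KLF9, a Kruppel-like repressor, read 303, 305 and 321 with DMSO and 514, 581 and 525 with dexamethasone (0.80, SE 0.06, limma adjusted p = 7.96e-05; block value 0.73), and it was the only one of 15 measured Kruppel-like factor genes to pass (list median 0.00). BCL6, another repressor, rose by 0.58 and TIPARP, an ADP-ribosyltransferase, by 0.79. The cell cycle inhibitor gene CDKN1C (p57) rose by 0.58 (SE 0.05), from 13374 to 14522 with DMSO to 20606 to 21398 with dexamethasone. Its relative CDKN1A (p21) fell by 0.36 and lost its call with the slide block, and the other 17 measured cell cycle genes had changes from −0.24 to 0.10 that did not pass, with a list median of −0.04. ERRFI1, which inhibits the EGF receptor, read 1837, 2481 and 2134 with DMSO and 4748, 4563 and 5420 with dexamethasone, a rise of 2.29-fold (log2 1.20, SE 0.11, limma adjusted p = 0.000338; 1.15 with the slide block). On the same EGF receptor list the ligand HBEGF fell by 0.32 and the Ras pathway inhibitor SPRED2 by 0.36, while EGFR itself changed by −0.05; the 2 falls lost their calls with the block, and the median of the 14 measured was −0.09. All 7 C/EBP factor genes measured, CEBPD (0.26) and CEBPB (−0.05) among them, did not pass.

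**Figure D4:**
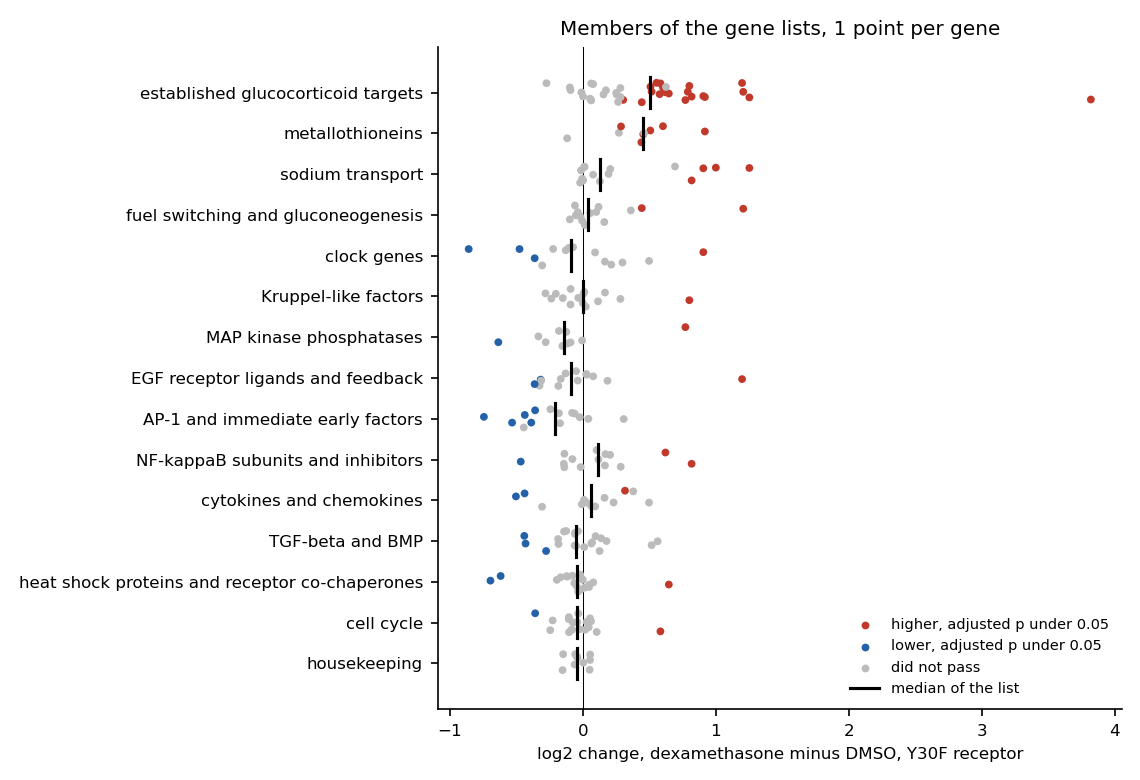
log2 change on dexamethasone for every measured member of 15 gene lists, 1 point per gene, with the median of each list as a bar. The lists were chosen with earlier results of these data known. Red members rose and blue members fell at an adjusted p of 0.05; 20 of 37 established glucocorticoid targets are red, 5 of 14 AP-1 and immediate early genes are blue, and the 10 housekeeping genes are grey and lie between −0.15 and 0.06.

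Some of the genes that growth factors and stress switch on fell. On the list of AP-1 and immediate early factors 5 of 14 genes fell and 0 rose, with a median of −0.21, against falls in 0.389% of all features. IER3, an early response protein linked to survival, read 8695, 8582 and 8067 with DMSO and 5182, 5174 and 4787 with dexamethasone. It fell by 0.74 (SE 0.05, limma adjusted p = 4.22e-05; −0.70 with the slide block) and was the 1 gene of this list that also passed with the block. EGR1, a zinc finger factor induced by serum, read 3714, 4510 and 3788 with DMSO and 2586, 2893 and 2810 with dexamethasone, a fall of 0.53 (SE 0.08, limma adjusted p = 0.00514). ATF3 fell by 0.39, FOS, a subunit of AP-1, by 0.44, and IER2 by 0.36. The other AP-1 subunit genes JUN (−0.24), JUNB (−0.18), FOSL1 (−0.44), FOSL2 (0.04) and FOSB (0.31) did not pass.

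The cytokine LIF read 761, 787 and 718 with DMSO and 535, 548 and 516 with dexamethasone (fell by 0.50, SE 0.05, limma adjusted p = 0.000649; block value −0.50). IL11, a cytokine of the same family, fell by 0.44 without passing under the block. The natriuretic peptide gene NPPB fell by 0.64 and the metabolic hormone gene FGF21 by 0.61, the latter without passing under the block. Among 13 measured cytokines and chemokines the only rise was CXCL2 (0.32), which lost its call with the block. IL6 (0.06) and CCL2 (0.01) did not pass. The list median was 0.06. Over the 12 bright members it was 0.05, and −0.08 by replicate 1. On the list of TGF-beta and BMP genes 3 of 21 fell, among them TGFB2 (−0.43) and CCN1 (−0.28), and 0 rose (median −0.05); none of the 3 passed with the block. The NF-kappaB list had NFKBIA and TSC22D3 higher and TNFAIP3, an inhibitor that is itself an NF-kappaB target, lower (−0.47), while the subunit genes NFKB1, RELA and RELB each changed by −0.14 and did not pass. None of these 3 calls remained with the block. The median of the 14 measured was 0.11. Over the 13 bright members it was 0.12, and 0.02 by replicate 1.

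The counts on other lists stand beside calls in 1.82% of all features. Of 21 measured genes of extracellular matrix and adhesion the collagen cross-linking enzyme LOX rose (0.36) and 2 fell, among them PLAUR (−0.40). None of the 3 passed with the block. The list median was −0.03. Over the 19 bright members it was −0.07, and −0.14 by replicate 1. Of 4 TSC22 domain genes TSC22D3 alone rose, and 0 of the 10 housekeeping genes passed (median −0.04).

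The largest bright fall of any feature was that of PCDHB13, a clustered protocadherin of cell adhesion. It read 4858, 4219 and 3602 with DMSO and 924, 1362 and 967 with dexamethasone, 3.93-fold lower (log2 −1.97, SE 0.15, limma adjusted p = 0.000102; −2.18 with the slide block). The groups did not overlap, which the ranking required. Of the 15 protocadherin beta genes with a record on the array, 4 were measured, and the other 3 (PCDHB7, PCDHB8 and PCDHB11) had changes from −0.06 to 0.26 that did not pass. GDF15, a stress-induced hormone of the TGF-beta family, read 8292, 9625 and 9138 with DMSO and 5239, 4393 and 4695 with dexamethasone. It fell by 0.92 (SE 0.09, limma adjusted p = 0.000580; −0.78 with the slide block).

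Of the 15 largest bright falls of named genes 10 also passed with the block; the 5 that did not were ZNF343 (−1.04 with the block), ETV5 (−0.73), HSPA1A (−0.71), FGF21 (−0.64) and DUSP5 (−0.56). ZNF343 is the least certain of them. A second probe of its record changed by −0.13, and its DMSO arrays ranged from 68.4 to 120. Keratin gene KRT81 fell by 0.62 without the block and by 0.82 with it.

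GDF15 stands on a list of p53 target genes that was chosen after values were seen, and its counts are a description only. On that list 7 of 21 measured genes fell and 0 rose: GDF15, PLK2 (−0.51), PLK3 (−0.49), MDM2 (−0.46), CDKN1A (−0.36), PHLDA3 (−0.27) and SESN2 (−0.24). The list median was −0.14, and GDF15 was the only member that passed with the block. BBC3 (0.02), FAS (0.05) and CCNG1 (0.06) did not pass.

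Among chaperones, 2 of 20 measured genes fell and FKBP5 rose, with a median of −0.04. DNAJB1, an HSP40 co-chaperone, read 6750, 6853 and 6782 with DMSO and 4512, 4391 and 4385 with dexamethasone, a fall of 0.62 (SE 0.05, limma adjusted p = 0.000269; −0.59 with the slide block). HSPA1A, the inducible HSP70, read 17987, 26594 and 21239 with DMSO and 13220, 13872 and 13085 with dexamethasone. It fell by 0.69 (SE 0.11, limma adjusted p = 0.00959), and its 2 other probes by 0.92 and 0.70; HSPA1B is a near-identical copy, so the signal cannot be given to 1 of them. The chaperones that hold the unliganded receptor did not pass: HSP90AA1 (−0.08), HSP90AB1 (−0.12), PTGES3 (−0.02) and STIP1 (−0.19).

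DNAJC7, the gene of CCRP, read 32726, 32487 and 30238 with DMSO and 22722, 23017 and 22362 with dexamethasone. The fall of 0.49 (SE 0.05, limma adjusted p = 0.000822; −0.48 with the slide block) was larger than the spread in either group. Whether the probe reads the plasmid's transcript as well as the cells' own is not known here. The tested probe of NR3C1, the receptor gene, read 384, 440 and 396 with DMSO and 366, 342 and 385 with dexamethasone, a change of −0.16 that did not pass; where this probe lies relative to the transfected cDNA is not known here, so it does not check the overexpression.

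Genes of steroid and vitamin D handling, a list also chosen after values were seen, had 5 rises and 1 fall among 13 measured, with a median of 0.40. Over the 12 bright members the median was 0.26, and 0.07 by replicate 1. VDR, the vitamin D receptor, read 338, 361 and 370 with DMSO and 643, 670 and 658 with dexamethasone, a rise of 0.88 (SE 0.05, limma adjusted p = 1.15e-05; 0.85 with the slide block). CYP24A1, the enzyme that inactivates vitamin D, went the other way. Its signals were 1602, 1400 and 1397 with DMSO and 804, 822 and 876 with dexamethasone, a fall of 0.81 (SE 0.09, limma adjusted p = 0.000996; −0.86 with the slide block), and a second probe changed by −0.86. CYP27B1, which activates vitamin D, changed by 0.13 and did not pass. GPER1, SRD5A1 (0.56), HSD11B2 (0.40), which inactivates cortisol, and HSD17B3 also rose; SRD5A1 and HSD11B2 lost their calls with the block. HSD17B3, an enzyme of testosterone synthesis, was dim, at 3.67 to 5.21 against 35.2 to 37.5, and its SE was 0.60. Its probe was well above background on 6 of the 12 arrays, so it was tested only because of the arrays where it is high.

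Of the 40 higher features with dim probes, 24 had a change above 0 with Y30E, against 235 of the 247 bright ones. The share over all dim features is not given here, so the 24 cannot be judged against it. Dim features also often read higher on slide 2, which holds dexamethasone arrays of Y30F and DMSO arrays of Y30E. Higher features with dim probes that were well above background on 0 DMSO arrays and all 3 dexamethasone arrays were ranked by p. The 5 named genes with the smallest p included AGT, WDFY4, RUNX3 and COL4A4. These genes entered the test through dexamethasone arrays, where they are high, so the direction of their change was set by that choice. Their folds are lower bounds, with each DMSO array taken at its lowest signal well above background where the probe read less. RUNX3, a transcription factor, read 8.11, 12.6 and 10.7 and then 66.0, 72.8 and 59.5, at least 3.23-fold higher. The bounds were at least 2.72-fold higher for WDFY4, at least 1.62-fold higher for the basement membrane collagen gene COL4A4 and at least 1.51-fold higher for the angiotensinogen gene AGT, and COL4A4 lost its call with the slide block. The oxidase gene DUOX1 (1.23, dim) and the iodide transporter gene SLC5A5 (0.61), named after their values were seen, rose as well, and DUOX1 lost its call with the block.

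A probe assigned to CSH1, the placental lactogen gene, fell. It read 417620, 420240 and 373850 with DMSO and 192420, 239680 and 228400 with dexamethasone, a fall of 0.88 (SE 0.10, limma adjusted p = 0.00119; −1.07 with the slide block). Of the 4 kept probes of this record, another bright one changed by −0.68 from a DMSO mean of 362480, while the other two had DMSO means of 25.4 and 54.0 and changed by 0.47 and 0.35. The probes of the record therefore disagree, and what these probes read in these cells is not known here. GH1 (0.14) and CSH2 (−0.02), near relatives of CSH1, did not pass.

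Across the records of changed genes that had further probes above background, 101 of 110 other probes moved in the same direction. A gene name could be given to 241 of the 365 changed features. Among the 124 without one, a probe known by its identifier A_23_P300563 had the second largest bright fall, from 25306, 27562 and 24473 to 9488, 7780 and 8689 (log2 −1.58, SE 0.08, limma adjusted p = 5.12e-06; −1.44 with the slide block); it was chosen after its values were seen.

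Requiring a call in both fits, with and without the slide block, and a bright probe left 85 features, 66 higher and 19 lower, of which 70 have a gene name. Beyond the genes described, the 66 included OLFM1, a secreted neuronal glycoprotein, with 2 records (0.84 and 0.88), the secreted protease HTRA3 (0.93), the transcription factor FOXC1 (0.89), the potassium channel gene KCNH2 (0.78), the stress-responsive NDRG1 (0.64), the neurotrophin NTF3 (0.64), the G-protein regulator RGS2 (0.63), the transcription factor SNAI1 (0.59), the coactivator PPARGC1B (0.55) and the glutathione synthesis enzyme GCLC (0.52). Among the 19 lower ones were CREB5 (−0.43), a factor that binds cAMP response elements, and PPP1R15A (−0.45), which reverses stress-induced translational arrest. The NTF3 signals were 141, 159 and 148 with DMSO and 227, 236 and 236 with dexamethasone. Those of HTRA3 were 3575, 3633 and 3718 with dexamethasone, all above those with DMSO, 1851, 1890 and 2012.

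The same contrast with the Y30E receptor uses other arrays, so its changes can be set beside these values. The 2 contrasts are not separate by slide, however. Slide 2 carries treated arrays in the Y30F contrast but vehicle arrays in the Y30E contrast. Without the block, a shift of that slide would move the 2 effects in opposite directions and so enter their difference. How much of the difference this makes up was not tested. With Y30E 423 features passed (2.11%). Of the 85 features above 78 passed with Y30E in the same direction, 59 of the 66 higher and all 19 lower. The calls are not separate evidence, since both contrasts come from the same fit and share each feature's SE. The 85 features were chosen partly for a small SE, which also helps them pass with Y30E. RASD1 rose by 3.97 with Y30E (3.82 with Y30F), ARC by 2.80 (2.79), and PCDHB13 fell by 1.78 (1.97). The difference of the 2 effects, tested over all 20037 features, passed for 0 of them in limma (0%), with a smallest adjusted p of 0.0599. It had an unadjusted p under 0.05 for 2255 features, so 0 calls do not show that the 2 effects are equal. If no effect differed, a share near 0.05 of the 20037 features would lie there. The cause of the larger count was not tested. The difference had an unadjusted p under 0.05 for 835 features with slide as a block. It passed for 18 features with slide as a block.

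For 75 of the 85 features the 95% interval of the difference (Y30E minus Y30F) lay within 1.5-fold in either direction, and for 12 it excluded 0 before any adjustment. Differences with slide as a block rest on 1 Y30F-DEX array (replicate 1) and 1 Y30E-DMSO array (replicate 3). DLL1 rose by 2.93 with Y30E, a difference of 0.77 with an interval of 0.44 to 1.09 and an adjusted p of 0.166 in limma; with slide as a block the difference was 0.49. PDK4 changed by 0.54 with Y30E and did not pass there, and by 0.69 with slide as a block, against that 1 DMSO array. Its difference was −0.67 with an interval of −1.07 to −0.27 (limma adjusted p = 0.315), and −0.19 with the block. Its DMSO arrays read 90.5 to 113 with Y30E against 61.2 to 63.5 with Y30F. FOXC1 changed by 0.48 with Y30E, a difference of −0.41 with an interval of −0.63 to −0.19, and −0.42 with the block. SLC5A5 changed by −0.15 with Y30E and by 0.05 with the block. The only other of the 85 with opposite signs was a feature known as THC2725153, chosen here after its values were seen, which changed by 1.31 with Y30F and −1.12 with Y30E. Its 4 arrays of slide 2 (2 Y30F-DEX, 2 Y30E-DMSO) read 57.9 to 75.3 and the other 8 arrays 22.1 to 49.3. With slide as a block it changed by 1.02 with Y30F, which passed, and by −0.50 with Y30E (limma adjusted p = 0.406), a difference of −1.52 (limma adjusted p = 0.0928).

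**Figure D5:**
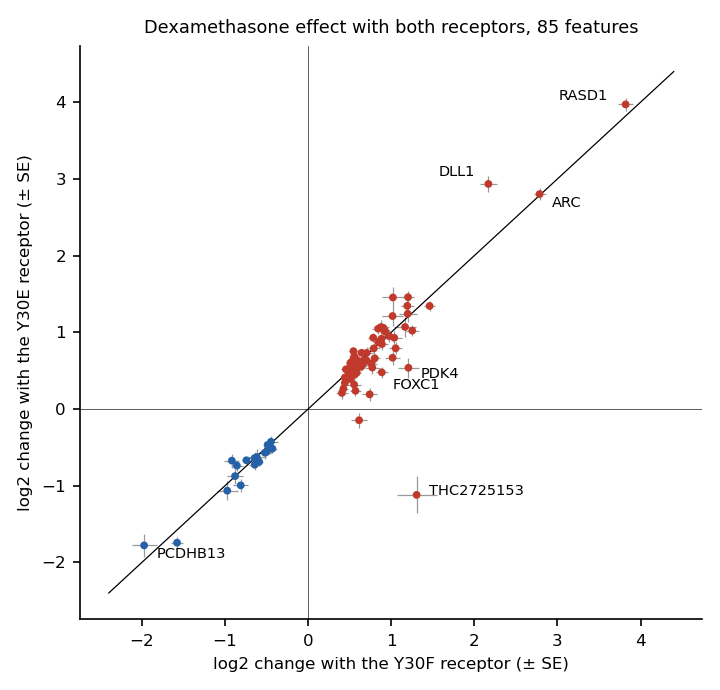
log2 change on dexamethasone with the Y30F receptor (x axis) against that with the Y30E receptor (y axis) for the 85 bright features that passed with Y30F both with and without slide as a block, with limma's SE as bars and the line of equality. RASD1 and ARC lie near the line, DLL1 above it and PDK4 and FOXC1 below it, and THC2725153 has opposite signs (1.31 and −1.12).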

How the data were processed

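Total RNA of 12 COS-1 samples was hybridised to 12 one-colour Agilent arrays (4x44 format), 3 per group. The deposited intensity is the processed signal of Agilent Feature Extraction (version 12, per the submitters' processing notes), from which the background was subtracted and spatial trends were removed, per the file headers, with no scaling between arrays; deposited flag columns mark spots well above background, saturated or outlying. The deposited series table held the same values (0 differed). Groups came from titles and descriptions; a characteristics label lists 1 construct per mutant where descriptions list both, and descriptions were followed.

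From these, log2 intensity minus each array's 75th percentile over 43376 non-control spots was taken, outlier spots (89 to 154 per array) were left out and spots of a probe averaged. Probes with at least 0.5 of their spots well above background on all arrays of a group were kept (25570), and each record was represented by its brightest kept probe, by mean log2 level (20037 features). The test was limma 3.58.1 (lmFit, eBayes; R 4.3.3) on 4 group means over 12 arrays, with Benjamini-Hochberg adjustment across the 20037 features at 0.05. Printed signals are scaled to the geometric mean of the arrays' 75th percentiles, 808. The fit was also run on simulated data with independent noise on each array and no slide shift. That run therefore does not check the calls against the slide split.

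The files give records without gene names. Names were assigned from general knowledge of RefSeq records (548 of the tested features), other records stayed unnamed, and of 477 list genes 455 had a record on the array and 369 were tested. The members and lists were chosen with earlier results of these data known. Genes are named by 3 rules: the 15 highest and 15 lowest changes among bright, named, called features whose groups do not overlap; up to 5 called genes above background in 1 group only; and list members that passed or were picked for their role. Matches to receptor motifs in promoters were planned and not run, since no sequences were used here. No pairing by replicate number was seen (correlation of same-numbered deviations −0.058, 0.011 and −0.047), and none was used in the main fit. With 3 arrays per group and dexamethasone arrays on 2 slides, these values cannot exclude pairing. A few genes that these rules name are not reported here. The alternatives are given in the closing section.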

Additional observations from a re-analysis of the deposited data

How the results depend on the processing

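The dexamethasone effect gave 365 calls, and 308, 330, 267 and 248 with normexp correction (offset 50, median signals), quantile normalization, median centring and no filter on dim probes. The count was 120 with slide as a fixed block, 342 with slide as a random block, 6 on slide 1 alone, 39 without slide 2, 137 with the 6 Y30F arrays alone and 4323 with array weights, which ranged from 0.421 (Y30F-DEX replicate 1) to 7.1 (Y30F-DEX replicate 3). Without 1 Y30F array in turn it ranged from 207 to 1367, and without 1 Y30E array from 297 to 391. With the replicate number as a block it was 272, though no pairing by these numbers was seen. The difference of the effects passed for 0 features, and for 18 with slide as a fixed block, 1 with the replicate block, 1 with median centring, 3679 with array weights and 3 without slide 2. Without 1 array in turn that count ranged from 0 to 1130, the highest when Y30F-DEX replicate 1 was left out, and 125 when Y30E-DMSO replicate 3 was. Without slide 2 and leaving out Y30E arrays were chosen with the data seen.

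The alternatives reuse the same arrays, and the 91 named genes were taken as called in the main fit. Their direction is therefore largely set by that choice. Of the 91 genes, 0 changed direction under up to 26 alternatives. RASD1, ARC and DLL1 passed in all of them, 20 genes failed 1 alone (slide 1 alone, where 3 of the 91 passed), and 18 failed 10 or more, among them FOS, IER2, MT1E, THBD, GLUL and HSD11B2. With the slide block 46 of the 91 passed. The cause of these losses was not tested. Dim probes limit the rest: the median SE was 0.26 for features not bright against 0.08 for bright ones.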
